A study of Equus asinus with 12 samples.

Results

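The loci described here were built by a transcript assembler from reads of donkey skeletal muscle and carry no gene name. A member is a row of the deposited table with an empty gene name and an assembler identifier (MSTRG), listed with at least 1 FPKM (fragments per kilobase of transcript, divided by the depth of the library) in at least 3 of 12 libraries. Of 27084 listed loci, 2941 had no name and 1515 of these met the rule. The FPKM values chose the members, so their levels are given below as a description, without a test. The libraries came from Dezhou donkeys of the Sanfen and the Wutou strain, all 24 months old, and from 2 muscles: the longissimus dorsi of the back and the gluteal muscle of the hip. Each of the 4 combinations of strain and muscle had 3 libraries, and no treatment or altered allele is given for any of them. The submitters counted 6 donkeys for these 12 samples without tying libraries to animals, so all p-values here measure the spread between libraries, which may be partly technical.

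Assemblers join overlapping reads into transcripts and number the resulting loci. A locus stays without a name when it overlaps no annotated gene. Such loci can hold long non-coding RNAs, small structured RNAs, unannotated ends of neighbouring genes, transcribed repeats or genes that the annotation misses. In muscle, unannotated and non-coding transcripts are known to include regulators of myogenic differentiation, but a level alone does not tell which kind a locus is. FPKM divides by transcript length, so a short transcript with few fragments can have a high value, and a share of summed FPKM is not a share of reads. Locus lengths, positions and sequences were not used here, and strandedness is not stated, so reads from a locus and from an overlapping or antisense transcript cannot be told apart.

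The tissue label was checked against named genes. All 18 listed genes of a 19-gene skeletal muscle list, with ACTA1, CKM and TTN among them, passed the same threshold, and together they held 16.1% to 19.7% of the summed FPKM of each library. None of the 5 listed genes of an 8-gene erythroid list passed it, and their summed level was 0.0610 to 3.83 FPKM per library. The haemoglobin entries HBA, HBB and HBA2 of that list were not listed, so the sum does not measure blood RNA. The summed level of the tendon and cartilage list ran from 18.8 to 145 FPKM, highest in Sanfen gluteal replicate 1. The satellite cell list ran from 7.44 to 62.2 FPKM and the immune list from 32.8 to 109.6 FPKM, both highest in Sanfen longissimus replicate 2. In bulk tissue, fewer cells of a type and less RNA per cell cannot be told apart.

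The 1515 unnamed loci held between 20.1% and 32.2% of the summed FPKM of a library, with a median of 24.8%. In Sanfen longissimus the share was 20.3%, 24.5% and 27.7% in replicates 1 to 3. Sanfen gluteal libraries had 24.9%, 23.9% and 32.2%. The Wutou longissimus shares were 20.1%, 28.1% and 24.7%, and those of Wutou gluteal were 32.0%, 30.5% and 23.5%. The group means were 24.2% ± 3.73 (SD, n = 3), 27.0% ± 4.52, 24.3% ± 3.99 and 28.7% ± 4.50 in the same order. All 4 groups overlapped, and the range within each group was wider than the distance between any 2 group means.

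**Figure D1:**
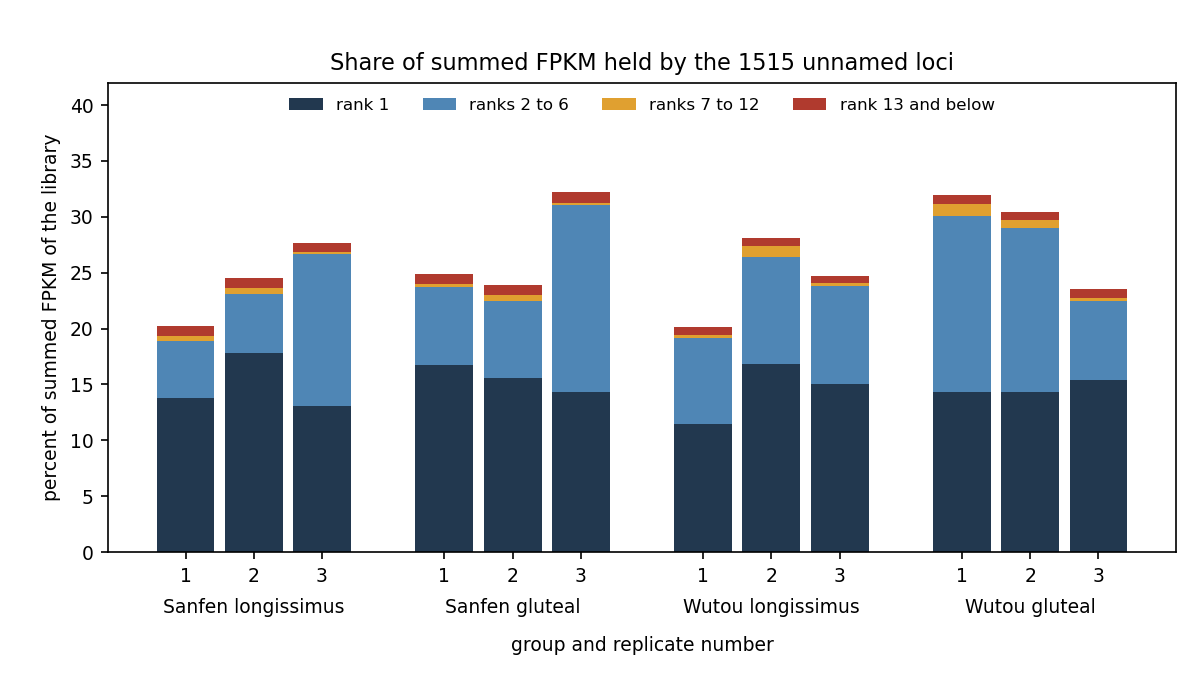
Percent of the summed FPKM of each library (vertical axis, from 0) held by the 1515 unnamed loci, for the 12 libraries grouped by strain and muscle. Colours split the bar by the rank of a locus in mean FPKM over 12 libraries: the rank 1 locus holds 11.5% to 17.8% of a library, while the 1503 loci from rank 13 down hold 0.633% to 0.974%.

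Almost all of this signal came from a handful of loci. The most abundant locus, MSTRG.13784, alone held 44.5% to 72.5% of the FPKM of all unnamed loci in a library. The 6 most abundant held 93.2% to 96.5%, and the 12 most abundant held 95.4% to 97.6%. Among the 10 most abundant loci of the whole table, 4 had no name. The 1503 loci from rank 13 down together held less than 1% of each library. Their share averaged 0.892% ± 0.0543 (SD, n = 3) for longissimus and 0.934% ± 0.0410 for gluteal libraries of Sanfen. The Wutou means were 0.677% ± 0.0430 for longissimus and 0.808% ± 0.0505 for gluteal. For this remainder the 3 Wutou longissimus libraries (0.719%, 0.680% and 0.633%) lay below every Sanfen library (0.831% to 0.974%) as a share. Its summed FPKM overlapped in longissimus, at 1908, 2176 and 1857 for Wutou and 2159, 2360 and 2096 for Sanfen. In gluteal the sums did not overlap, at 1858, 2148 and 2087 for Wutou and 2577, 2408 and 2321 for Sanfen. The gluteal shares did not overlap either, at 0.866%, 0.775% and 0.782% for Wutou and 0.974%, 0.892% and 0.934% for Sanfen. The whole Wutou longissimus libraries summed to 265498, 319767 and 293296 FPKM, and those of Sanfen longissimus to 231193, 258793 and 252255.

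Most unnamed loci were close to the threshold. Their median mean level over 12 libraries was 0.978 FPKM, with quartiles of 0.833 and 1.30. A mean under 1 FPKM was seen for 796 loci, 539 lay from 1 to 2, 128 from 2 to 5, 24 from 5 to 10 and 28 at 10 or above. Within those 28, 11 reached 100 FPKM and 6 reached 1000 FPKM. At the threshold itself, MSTRG.7934 and MSTRG.1124 were just inside, the third highest value of each being 1.0 FPKM when rounded and the highest 1.21 and 1.42. MSTRG.29 and MSTRG.9156 were just outside, the third highest value being 1.0 when rounded (below 1 as listed) and 0.999, and the highest 1.40 and 1.27. The loci inside and outside thus had nearly the same levels.

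Compared with other loci kept by the same threshold, the unnamed loci resembled assembled loci that carry a gene name more than loci with a reference transcript. A single transcript was listed for 1441 of 1515 unnamed loci (95.1%), for 1755 of 1862 assembled loci with a name (94.3%) and for 2600 of 9031 loci with a reference transcript (28.8%). The median mean level was 0.978, 1.01 and 2.59 FPKM in the 3 classes. The floor of 1 FPKM was reached in all 12 libraries by 167 unnamed loci (11.0%), 231 assembled loci with a name (12.4%) and 5848 loci with a reference transcript (64.8%). It was reached in only 3 libraries by 351 (23.2%), 417 (22.4%) and 313 (3.47%). The median coefficient of variation (SD over mean) across the 12 libraries was 0.416, 0.416 and 0.266. A value above 0 was listed in all 12 libraries for 1360 unnamed loci (89.8%), so most were low in every library rather than listed in some and missing in others. None of the 1515 had a gene ontology term, a pathway entry or a description in the table. The same held for the 1862 assembled loci with a name, while 8810 of the 9031 loci with a reference transcript had a gene ontology term.

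**Figure D2:**
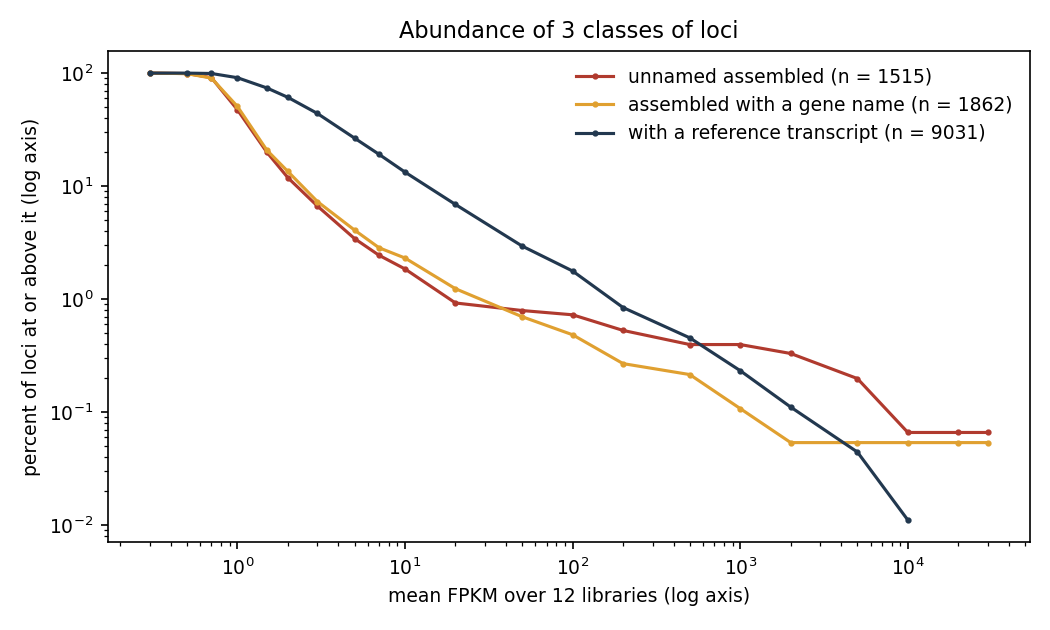
Percent of kept loci (vertical log axis) whose mean FPKM over 12 libraries is at or above the value on the horizontal log axis, for unnamed assembled loci (n = 1515), assembled loci with a gene name (n = 1862) and loci with a reference transcript (n = 9031). The 2 assembled classes fall together to 1.85% and 2.31% at 10 FPKM, against 13.3% for loci with a reference transcript, while 6 unnamed loci (0.396%) and 0.233% of loci with a reference transcript reach 1000 FPKM.

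The 10 most abundant unnamed loci fell into those that were steady over libraries and those that ranged widely. MSTRG.13784 was steady. Its Sanfen libraries had 31973, 46083 and 33050.3 FPKM for longissimus replicates 1 to 3 and 44185, 42101 and 35564 FPKM for gluteal replicates 1 to 3. The Wutou libraries, in the same order, had 30519, 53910.5 and 44102 FPKM for longissimus and 30710.3, 39819 and 41019.7 for gluteal. Its mean was 39419.8 FPKM with a coefficient of variation of 0.183, and its highest library was 1.77 times its lowest. All 4 groups overlapped, and its smallest p over the 7 comparisons described below was 0.357 in limma (adjusted p = 1.0).

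MSTRG.5662, the third in rank with a mean of 7658 FPKM, was also steady. Its Sanfen levels were 7385, 7394 and 6575 FPKM for longissimus and 8834, 10340.4 and 6389.5 for gluteal. Its Wutou levels were 7729.5, 8903 and 9606 FPKM for longissimus and 4507, 6746 and 7483 for gluteal. The lowest library was Wutou gluteal replicate 1 and the highest Sanfen gluteal replicate 2. MSTRG.17476, the sixth, had a mean of 1435 FPKM and ranged from 896 in Sanfen longissimus replicate 2 to 1967 in Wutou longissimus replicate 2. MSTRG.5775, the eighth, was the steadiest of the 10, with a mean of 274 FPKM, a coefficient of variation of 0.169 and a range from 185 in Wutou longissimus replicate 2 to 338 in Wutou gluteal replicate 1. Its 3 Sanfen longissimus libraries lay within 286 to 308 FPKM.

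MSTRG.9789, the second in rank, had a mean of 8757 FPKM and listed 5 transcripts. Sanfen libraries had 1777, 2538 and 11238 FPKM for longissimus and 3839.97, 4032 and 2054 for gluteal. Wutou libraries had 3061, 11295 and 14347 FPKM for longissimus and 21321, 19734 and 9844 for gluteal. In gluteal muscle the 3 Wutou libraries lay above the 3 Sanfen libraries, while in longissimus the strains overlapped. The Wutou against Sanfen difference in gluteal muscle was 2.34 ± 0.70 (SE) on the log2(FPKM + 1) scale, and it did not pass the test (limma, unadjusted p = 0.00639, adjusted p = 0.963).

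MSTRG.14753 and MSTRG.19547 closed the list of 10. MSTRG.14753 averaged 155 FPKM, but 1 library set that value: Wutou gluteal replicate 2 had 1127 FPKM and the other 11 had 17.3 to 171. Without that library its mean was 66.2 FPKM. MSTRG.19547 averaged 133 FPKM and ranged from 2.37 in Sanfen gluteal replicate 3 to 297 in Sanfen gluteal replicate 2. Both number 3 libraries of Sanfen (11.3 and 2.37 FPKM) and Wutou gluteal replicate 3 (17.2) were its 3 lowest, against 61.1 to 297 FPKM in the other 9.

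**Figure D3:**
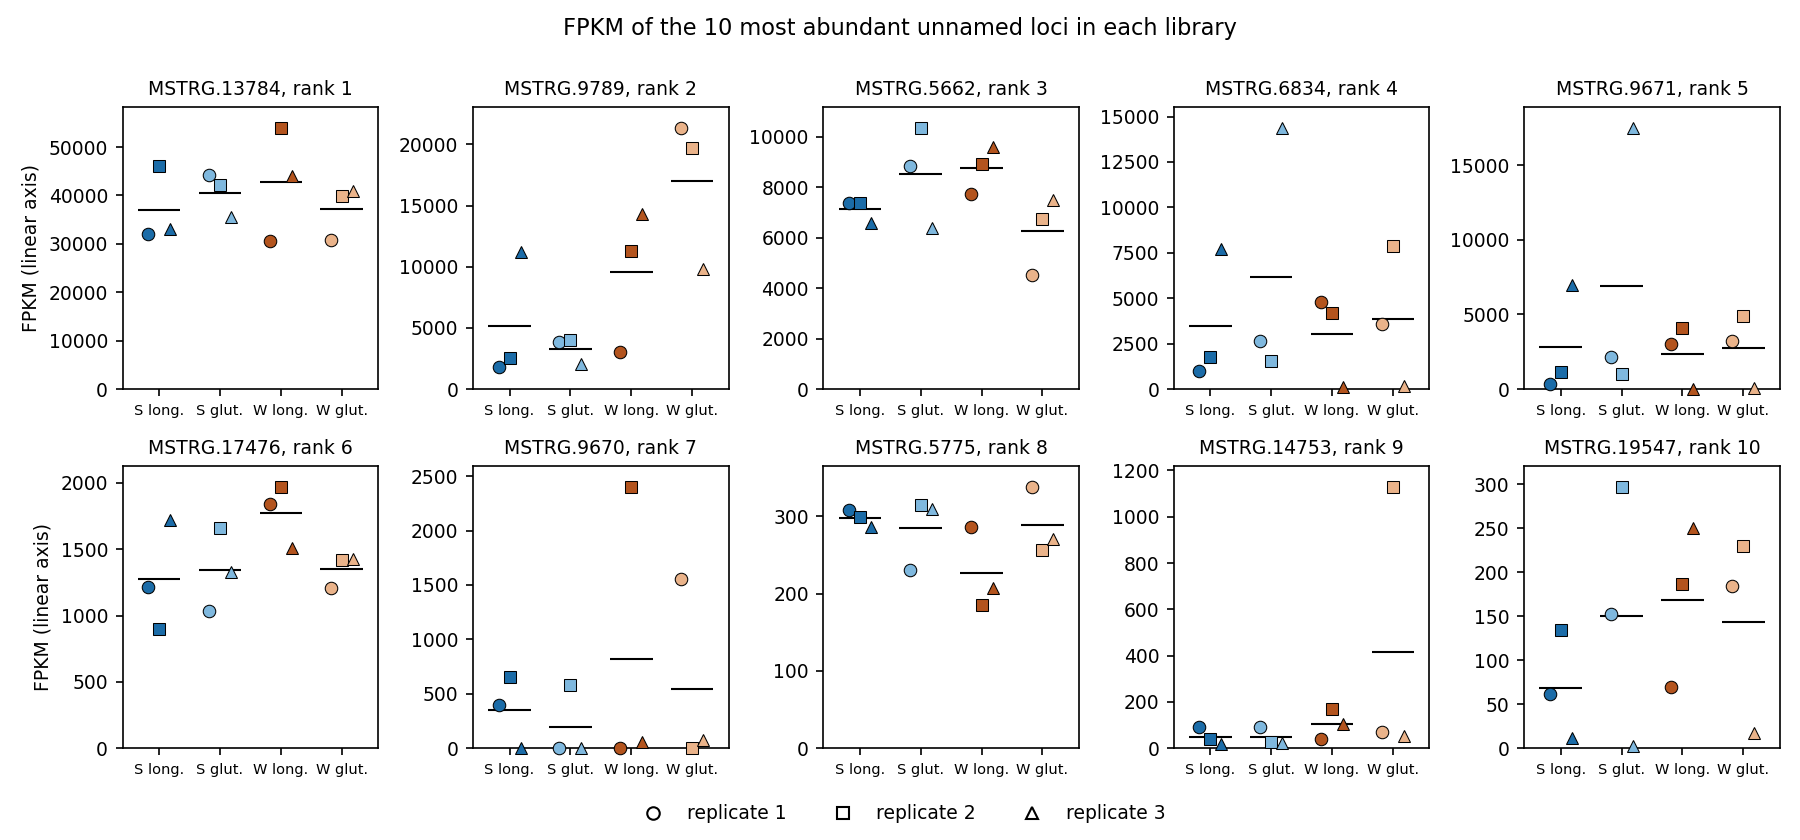
FPKM (vertical linear axes from 0, one scale per panel) of the 10 unnamed loci with the highest mean, in Sanfen longissimus (S long.), Sanfen gluteal (S glut.), Wutou longissimus (W long.) and Wutou gluteal (W glut.). Each symbol is 1 library, its shape the replicate number, and bars are group means of 3 libraries: MSTRG.13784 stays between 30519 and 53910.5, whereas MSTRG.9671 runs from 16.9 to 17473.

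Loci that ranged widely shared their pattern over libraries in a few cases, and these sets were picked after their values were seen. MSTRG.6834, the fourth in rank with a mean of 4145 FPKM, had 973, 1772 and 7736 FPKM in the longissimus libraries of Sanfen and 2621, 1549 and 14361 in its gluteal libraries. The corresponding Wutou values were 4773, 4189 and 132 FPKM and 3559.7, 7879 and 195 FPKM. MSTRG.9671, the fifth with a mean of 3697 FPKM and 6 transcripts, had 332, 1156 and 6959.8 FPKM in the first of these groups and 2163, 1002 and 17473 in the second. Its Wutou values were 2988, 4097 and 16.9 FPKM for longissimus and 3203, 4912 and 60.9 FPKM for gluteal. MSTRG.9831, the thirteenth with a mean of 36.2 FPKM, had 8.01, 13.7 and 67.8 FPKM for Sanfen longissimus and 20.6, 7.95 and 145 for Sanfen gluteal. It had 24.3, 52.7 and 0.432 FPKM for Wutou longissimus and 27.5, 65.9 and 0.772 for Wutou gluteal. For all 3 loci the number 3 libraries of Wutou were the 2 lowest of the 12, and Sanfen gluteal replicate 3 was the highest.

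Over the 12 libraries the log2(FPKM + 1) values of MSTRG.6834 had a Pearson r of 0.990 with MSTRG.9671 and of 0.986 with MSTRG.9831, and MSTRG.9671 had 0.976 with MSTRG.9831. These r values describe points that share libraries and their depth. Together the 3 loci held from 0.0511% of the summed FPKM in Wutou longissimus replicate 3 to 12.9% in Sanfen gluteal replicate 3. The library with the highest share of FPKM in unnamed loci, Sanfen gluteal replicate 3 at 32.2%, was thus also the library where these 3 loci were highest. The ratio of MSTRG.6834 to MSTRG.9671 lay between 0.822 and 2.93 in 10 libraries, and was 7.83 and 3.20 in the 2 where both were lowest, Wutou longissimus replicate 3 and Wutou gluteal replicate 3.

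A pair of loci was high in 1 replicate number of 1 strain. MSTRG.16111 had 108 FPKM in Sanfen longissimus replicate 1 and 94.1 FPKM in Sanfen gluteal replicate 1, against 0.0861 to 2.29 FPKM in the other 10 libraries. MSTRG.5128 had 94.7 and 78.3 FPKM in the same 2 libraries and 0.0135 to 2.53 FPKM in the rest. Their Pearson r over 12 libraries was 0.996, which rests on those 2 libraries. Both had 1 transcript and reached the threshold of 1 FPKM in exactly 3 libraries, the third being Sanfen gluteal replicate 3.

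MSTRG.2699 was listed at 2 separated levels. It had 10.6 and 12.3 FPKM in Sanfen replicate 2 of longissimus and gluteal muscle and 11.6 and 7.12 FPKM in Wutou replicate 3 of the same muscles. The other 8 libraries were at 0.0146 FPKM or below, 4 of them listed at 0. The locus with the next lower number, MSTRG.2698, was high in the same 4 libraries, with 2.70, 3.53, 1.72 and 1.65 FPKM against 0.107 to 0.428 in the other 8. MSTRG.9670, the seventh in rank, was the other locus with 2 levels: it was listed at 0 in 5 libraries and at 55.8 to 2398 FPKM in the other 7. Those 7 were Sanfen longissimus replicates 1 and 2 (399 and 656 FPKM), Sanfen gluteal replicate 2 (578), Wutou longissimus replicates 2 and 3 (2398 and 55.8) and Wutou gluteal replicates 1 and 3 (1559 and 70.9). An exact 0 in a table without counts can be a failed estimate, so only the listing is given. Such 2-level loci made up 2 of 1515 members (0.132%) and 16 of 12408 loci tested (0.129%).

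**Figure D4:**
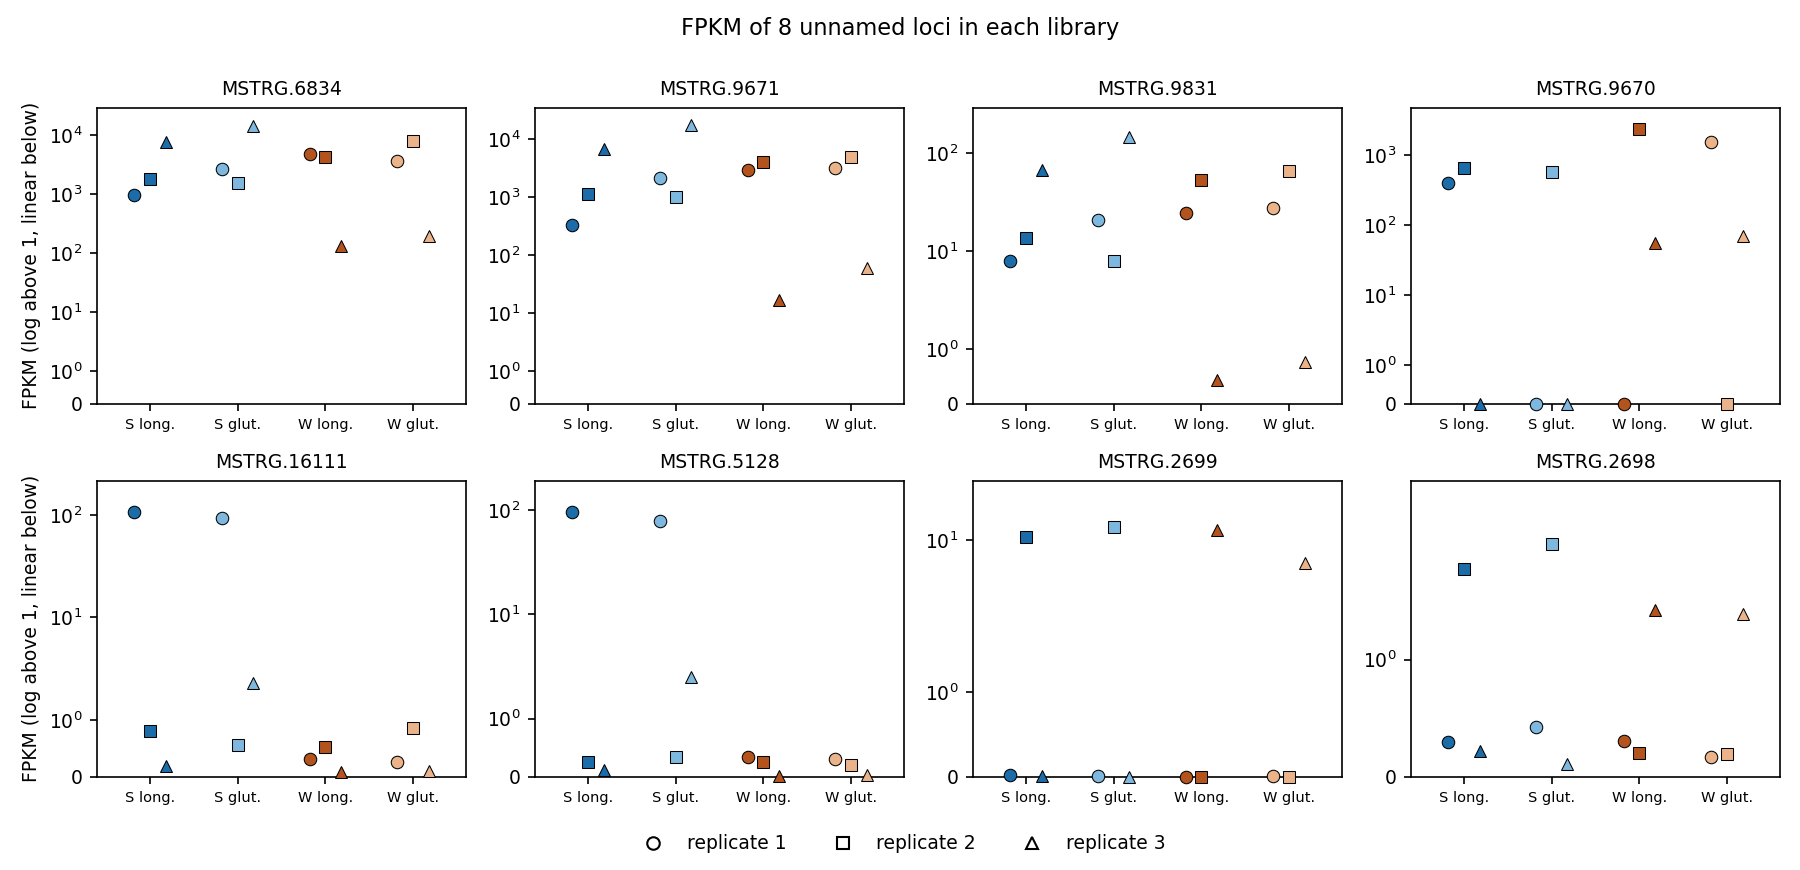
FPKM (vertical axes, logarithmic above 1 and linear from 0 to 1) of 8 unnamed loci in the 12 libraries, with the group abbreviations S (Sanfen), W (Wutou), long. (longissimus) and glut. (gluteal) and 1 symbol per library, its shape the replicate number. MSTRG.6834, MSTRG.9671 and MSTRG.9831 are all highest in Sanfen gluteal replicate 3 and lowest in both Wutou replicate 3 libraries, MSTRG.16111 and MSTRG.5128 are high in both Sanfen replicate 1 libraries, and MSTRG.2699 and MSTRG.2698 are high in both Sanfen replicate 2 and both Wutou replicate 3 libraries.

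Over all unnamed loci, patterns by replicate number were about as frequent as over all loci tested, which include them. Large leads were seen in too few loci to compare. The 2 highest libraries of a locus had the same strain and number in 233 of 1515 members (15.4%) and in 1820 of 12408 loci tested (14.7%). A lead of at least 2 on the log2 scale over the remaining libraries was seen in 2 of those members (0.132% of 1515), MSTRG.16111 and MSTRG.5128. It was seen in 5 of those loci overall (0.0403% of 12408) and in 3 of the named loci (0.0275% of 10893). Both members reached 1 FPKM in Sanfen libraries alone, the 2 of the lead among them, so their count describes the selection. For each locus, the mean absolute log2 difference between the muscles over library pairs of equal number was also divided by that over pairs of unequal number within a strain. The median of this ratio was 0.917 over the members and 0.923 over all loci tested, and it was under 0.5 in 106 members (7.0%) and 703 loci (5.67%). It was 0.0614 for MSTRG.2699, 0.130 for MSTRG.2698, 0.163 for MSTRG.5128, 0.167 for MSTRG.16111, and 0.230, 0.270 and 0.284 for MSTRG.9831, MSTRG.6834 and MSTRG.9671. For MSTRG.13784, MSTRG.9789 and MSTRG.5662 it was 0.565, 1.42 and 0.873. No label says that libraries with the same number share a donkey.

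Among members with a mean of at least 5 FPKM, spread over libraries was wider than over all loci at that level. These 52 loci had a median coefficient of variation of 0.384, against 0.235 for the 2529 loci of the whole table at that level. Of the 2529, 2401 had a reference transcript, 76 were assembled loci with a name and 52 were the members. The 76 were not taken alone, and over all kept loci both assembled classes had a median of 0.416. The coefficient was above 1 in 9 of the 52 (17.3%) and in 46 of the 2529 (1.82%), and under 0.25 in 10 (19.2%) and 1378 (54.5%). A cutoff on the mean also lets in loci through a few high libraries, and these have a wide spread by that choice. The 5 most variable were MSTRG.19548 (2.41), MSTRG.5128 (2.28), MSTRG.16111 (2.26), MSTRG.14753 (2.0) and MSTRG.9670 (1.60). MSTRG.19548 reached 161 FPKM in Wutou longissimus replicate 2 and 0 to 18.9 FPKM elsewhere, with 4 libraries listed at 0. Its number follows that of MSTRG.19547, the tenth in rank, which had 186 FPKM in that library and 69.0 and 250 in the other 2 of the group. MSTRG.8273, with a mean of 9.80 FPKM, was also highest in Wutou gluteal replicate 2 (29.4 FPKM), the library that set the mean of MSTRG.14753, and its log2 values had a Pearson r of 0.921 with those of MSTRG.14753 over the 12 libraries.

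Position was approached through the assembler's numbering, which largely follows gene order among named loci. This was not checked for unnamed loci. Of 10945 pairs of consecutive named loci that matched the RefSeq gene table (assembly EquAss-T2T_v2, used for names and neighbours only), 88.3% lay on 1 chromosome, and 89.8% of those lay within 5 genes of each other. Members had consecutive numbers in 251 runs that held 649 of them (42.8%), the longest with 12 loci, MSTRG.13451 to MSTRG.13462. No such share was taken for other loci, and consecutive numbers need not be neighbours, so clustering was not tested. MSTRG.13784 lay between FBXO9, a subunit of a ubiquitin ligase, and ICK, a protein kinase, whose loci averaged 4.95 and 2.37 FPKM, but ICK had no match in that gene table. MSTRG.9789 lay between ARF6, a small GTPase of membrane traffic, and NEMF, a factor of ribosome quality control, which are direct neighbours on chromosome 2 of that assembly. MSTRG.5662 lay between PARP2, a DNA repair enzyme, and TTC5, a cofactor of p53. On chromosome 2 of that assembly 3 genes lie between these: CCNB1IP1 and the small nucleolar RNA genes LOC123283646 and LOC123283655. MSTRG.17476, MSTRG.6834, MSTRG.9671 and MSTRG.9670 had flanking named loci on different chromosomes, so the numbering does not place them. The rate found for consecutive named loci therefore does not carry over to the abundant members. A neighbour in this order names a neighbourhood and does not identify the locus.

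The named locus whose log2(FPKM + 1) values were most like those of each abundant member was taken as the highest Pearson r over the 12 libraries. These are the top of 10893 named loci each, so a high r is built into the choice and no p is given. For MSTRG.13784 it was PUF60, a splicing factor, with r = 0.922 (Spearman's rho 0.867), and r was 0.882 without the 2 libraries farthest from the median. For MSTRG.17476 it was ALDOA, the muscle aldolase of glycolysis, with r = 0.945 (rho 0.930) and r = 0.931 without 2 libraries. For MSTRG.5662 it was TMEM19 with r = 0.883 (rho 0.937) and 0.835 without 2. For MSTRG.6834 it was ACTG1, a cytoplasmic actin, with r = 0.834 (rho 0.818) and 0.706 without 2. The likeness of MSTRG.9671 and LDB2, a LIM domain-binding protein, rested on 2 libraries: r was 0.859 (rho 0.462) with all 12 and 0.341 without Wutou longissimus replicate 3 and Wutou gluteal replicate 3.

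The number of members at 1 FPKM or above differed between libraries. For Sanfen it was 679, 946 and 822 (longissimus) and 960, 1033 and 873 (gluteal). For Wutou it was 689, 678 and 586 (longissimus) and 647, 699 and 801 (gluteal). As a share of the 1515 members, the group means were 53.8% ± 8.82 (SD, n = 3), 63.1% ± 5.29, 43.0% ± 3.73 and 47.2% ± 5.17. Of the kept named loci, 81.3%, 85.9%, 77.6% and 81.4% were at 1 FPKM or above, so that Sanfen longissimus and Wutou gluteal were level there. After median-of-ratios rescaling between libraries, a step added after seeing the data, the strains overlapped in both muscles, with higher means in Sanfen. The mean counts of members were 799 ± 88.9 (SD, n = 3), 843 ± 72.5, 701 ± 60.3 and 707 ± 80.4. In longissimus the libraries had 697, 860 and 840 (Sanfen) and 724, 747 and 633 (Wutou). In gluteal they had 765, 908 and 857 (Sanfen) and 637, 690 and 795 (Wutou). The deposited FPKM carry no recorded rescaling between libraries, and how far depth and scaling enter these counts was not tested. The floor was reached only in Sanfen libraries by 121 members (7.99%) and only in Wutou libraries by 23 (1.52%). Over all 12408 loci it was 355 (2.86%) and 73 (0.588%). Loci that passed through 1 strain alone had to be higher there, so these counts describe the selection.

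Differences by strain and muscle were tested with limma on log2(FPKM + 1) over all 12408 loci that met the threshold, with Benjamini-Hochberg adjustment over all of them at 0.05. No unnamed locus passed in any of 7 comparisons. At an unadjusted p under 0.05 the counts of members as deposited are given beside the share of all loci tested, to be read against that background. Counts and shares of members after rescaling have no such background beside them. Whether a lean that remains after rescaling is particular to the members was therefore not tested. The medians and the counts of higher and lower members below describe loci that the threshold had let through.

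Gluteal muscle was compared with longissimus in each strain and over both. In Sanfen, 0 of 1515 members passed the adjusted threshold, as did 0.0242% of all loci. There, 56 members (3.70%) had an unadjusted p under 0.05, 45 higher and 11 lower in gluteal, against 3.57% of all loci (356 higher, 87 lower). In Wutou, 0 members passed, as did 0% of all loci, and 62 members (4.09%; 36 higher, 26 lower) were under an unadjusted 0.05, against 5.68% of all loci (496 higher, 209 lower). Averaged over strains, 0 members passed, as did 0% of all loci, and 78 members (5.15%; 59 higher, 19 lower) were under an unadjusted 0.05, against 6.56% (673 higher, 141 lower). The lean towards gluteal among these members shrank or turned under other scalings. After median-of-ratios rescaling they were 24 higher and 17 lower in Sanfen, 28 and 36 in Wutou and 29 and 28 over both. After quantile normalization they were 22 and 24, 27 and 33, and 24 and 32. The median difference over members was 0.09, 0.05 and 0.07 on the log2 scale, and that over all loci was 0.08, 0.05 and 0.07. The share of members in each direction moved with the scaling: 505 members (33.3%) were lower in Sanfen gluteal as deposited, 44.8% after median-of-ratios rescaling and 49.3% after quantile normalization. In Wutou the same shares were 40.6%, 48.5% and 50.1%, and averaged over strains 33.6%, 45.5% and 49.2%.

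Wutou was compared with Sanfen in each muscle and over both. In longissimus, 0 members passed, as did 0.0161% of all loci, and 81 members (5.35%; 21 higher, 60 lower in Wutou) were under an unadjusted 0.05, against 5.52% of all loci (235 higher, 450 lower). In gluteal, 0 members passed, as did 0.00806% of all loci, and 98 members (6.47%; 18 higher, 80 lower) were under an unadjusted 0.05, against 4.86% (99 higher, 504 lower). Averaged over muscles, 0 members passed, as did 0% of all loci, and 124 members (8.18%; 22 higher, 102 lower) were under an unadjusted 0.05, against 5.97% (153 higher, 588 lower). The lean towards lower values in Wutou narrowed with rescaling, given here for members alone. Median-of-ratios values gave 25 higher and 50 lower in longissimus, 27 and 51 in gluteal and 35 and 65 over both. Quantile normalization gave 25 and 41, 38 and 44, and 45 and 52. The median difference over members was -0.09, -0.14 and -0.12, and over all loci -0.06, -0.09 and -0.07. Lower values in Wutou averaged over muscles were listed for 1094 members (72.2%) and for 64.7% of all loci. After median-of-ratios rescaling the share of members lower in Wutou was 64.6%, with a median of -0.07 over members and 0.00 (-0.000752) over all loci. Under quantile normalization it was 58.7%, with a median of -0.04 over members and 0.00 (0.00340) over all loci. In longissimus alone the share went from 64.2% to 57.8% and 54.3%, and in gluteal from 72.1% to 64.4% and 57.8%.

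For the interaction, the strain difference in the muscle contrast, 0 members passed, as did 0.00806% of all loci. At an unadjusted 0.05 there were 44 members (2.90%; 18 positive, 26 negative), against 2.6% of all loci (103 positive, 219 negative). It was 22 positive and 24 negative after median-of-ratios rescaling and 23 and 20 after quantile normalization. The median standard error of a difference within a strain or a muscle was 0.234 over members and 0.218 over all loci, on the log2 scale.

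The members with the smallest p in these comparisons were mostly low loci with 1 transcript and a mean under 4 FPKM, apart from MSTRG.19548 at 18.7 FPKM, and none passed the adjusted threshold. MSTRG.643 had 0.919, 1.85 and 1.05 FPKM in Sanfen longissimus and was listed at 0 in all 3 Sanfen gluteal libraries. The Wutou libraries had 0.807, 0.734 and 0.497 FPKM for longissimus and 1.20, 0.652 and 1.46 for gluteal. It had the smallest p of all members in the Sanfen muscle comparison (limma, adjusted p = 0.212), in the gluteal strain comparison (adjusted p = 0.384) and in the interaction (adjusted p = 0.324). No fold is given against a group listed at 0. With a pseudocount of 0.1 in place of 1, it alone of the members passed in the Sanfen muscle comparison (adjusted p = 0.0220; over 20 alternatives 0.0220 to 0.820).

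MSTRG.12510 was the largest of these in level among those with values above 0 throughout. In longissimus the strains did not overlap, with 0.750, 1.48 and 1.56 FPKM for Sanfen and 5.22, 6.94 and 6.69 for Wutou. The gluteal libraries overlapped, at 3.12, 4.13 and 1.88 FPKM for Sanfen and 1.65, 4.97 and 5.21 for Wutou. The longissimus difference was 1.70 ± 0.32 (SE) on the log2(FPKM + 1) scale, and the limma adjusted p was 0.282 (0.0600 to 0.815 over 20 alternatives).

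MSTRG.9969 had 4 transcripts and led the muscle comparison averaged over strains. Sanfen had 1.03, 0.911 and 0.899 FPKM for longissimus against 2.19, 1.76 and 1.41 for gluteal. Wutou had 0.861, 1.48 and 1.13 FPKM for longissimus against 1.73, 2.47 and 2.67 for gluteal. Gluteal lay above longissimus without overlap in both strains, by 0.56 ± 0.12 (SE) on the log2(FPKM + 1) scale (limma adjusted p = 0.413, 0.230 to 0.773 over 19 alternatives). MSTRG.16510 led the strain comparison averaged over muscles. Sanfen had 0.890, 1.79 and 1.79 FPKM for longissimus and 3.34, 2.77 and 3.09 for gluteal, and Wutou had 0.302, 0.862 and 0.651 FPKM for longissimus and 0.264, 1.41 and 1.53 for gluteal. The Wutou minus Sanfen difference was -0.83 ± 0.20 (SE), and the limma adjusted p was 0.783 (0.433 to 0.992 over 18 alternatives).

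In Sanfen gluteal muscle, MSTRG.14898 had 1.29 to 2.0 FPKM and MSTRG.11057 had 1.36 to 1.59 FPKM, above the 0.422 to 0.878 and 0.198 to 0.615 FPKM of Sanfen longissimus (limma adjusted p = 1 for each). Both loci reached 1 FPKM in those 3 gluteal libraries alone, so the threshold chose them through the group where they were high. MSTRG.213 had 0.950 to 1.49 FPKM in Wutou gluteal and 0.238 to 0.544 in Wutou longissimus (adjusted p = 0.870). This locus reached 1 FPKM in gluteal libraries alone, so the threshold chose it through the muscle where it was high. MSTRG.19548 differed by -4.25 ± 1.04 (SE) on the log2(FPKM + 1) scale between the same groups, with 0, 0 and 5.78 FPKM in Wutou gluteal and 13.5, 161 and 18.9 in Wutou longissimus (adjusted p = 0.870). MSTRG.2953 was listed at 0 in all 3 Wutou gluteal libraries and at 0.685 to 1.60 FPKM in Wutou longissimus (adjusted p = 0.870), while Sanfen gluteal had 0.702 to 1.94 FPKM (strain comparison, adjusted p = 0.963). MSTRG.12180 was listed at 0 in 5 of 6 gluteal libraries and had 0.585 to 1.36 FPKM in the 6 longissimus libraries (adjusted p = 0.745, averaged over strains).

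In the strain comparisons, MSTRG.15133 had 0.963 to 1.37 FPKM in Sanfen longissimus and 0.0858 to 0.214 in Wutou longissimus (limma adjusted p = 0.591). This locus reached 1 FPKM in Sanfen libraries alone, so the threshold chose it through the strain where it was high. MSTRG.13399 had 1.37 to 2.67 FPKM in Sanfen longissimus and 0.296 to 0.568 FPKM in Wutou longissimus (adjusted p = 0.757). Its gluteal libraries had 0.394 to 0.775 FPKM (Sanfen) and 0.560 to 1.54 FPKM (Wutou), and its interaction was 1.42 ± 0.33 (SE; adjusted p = 1.0). MSTRG.14624 had 1.99 to 2.90 FPKM for Sanfen gluteal and 0.730 to 0.933 for Wutou gluteal, a difference of -0.93 ± 0.19 (SE) on the log2 scale (adjusted p = 0.451). For these loci the 2 groups named did not overlap, yet none had an adjusted p under 0.05 over the 12408 loci tested.

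**Figure D5:**
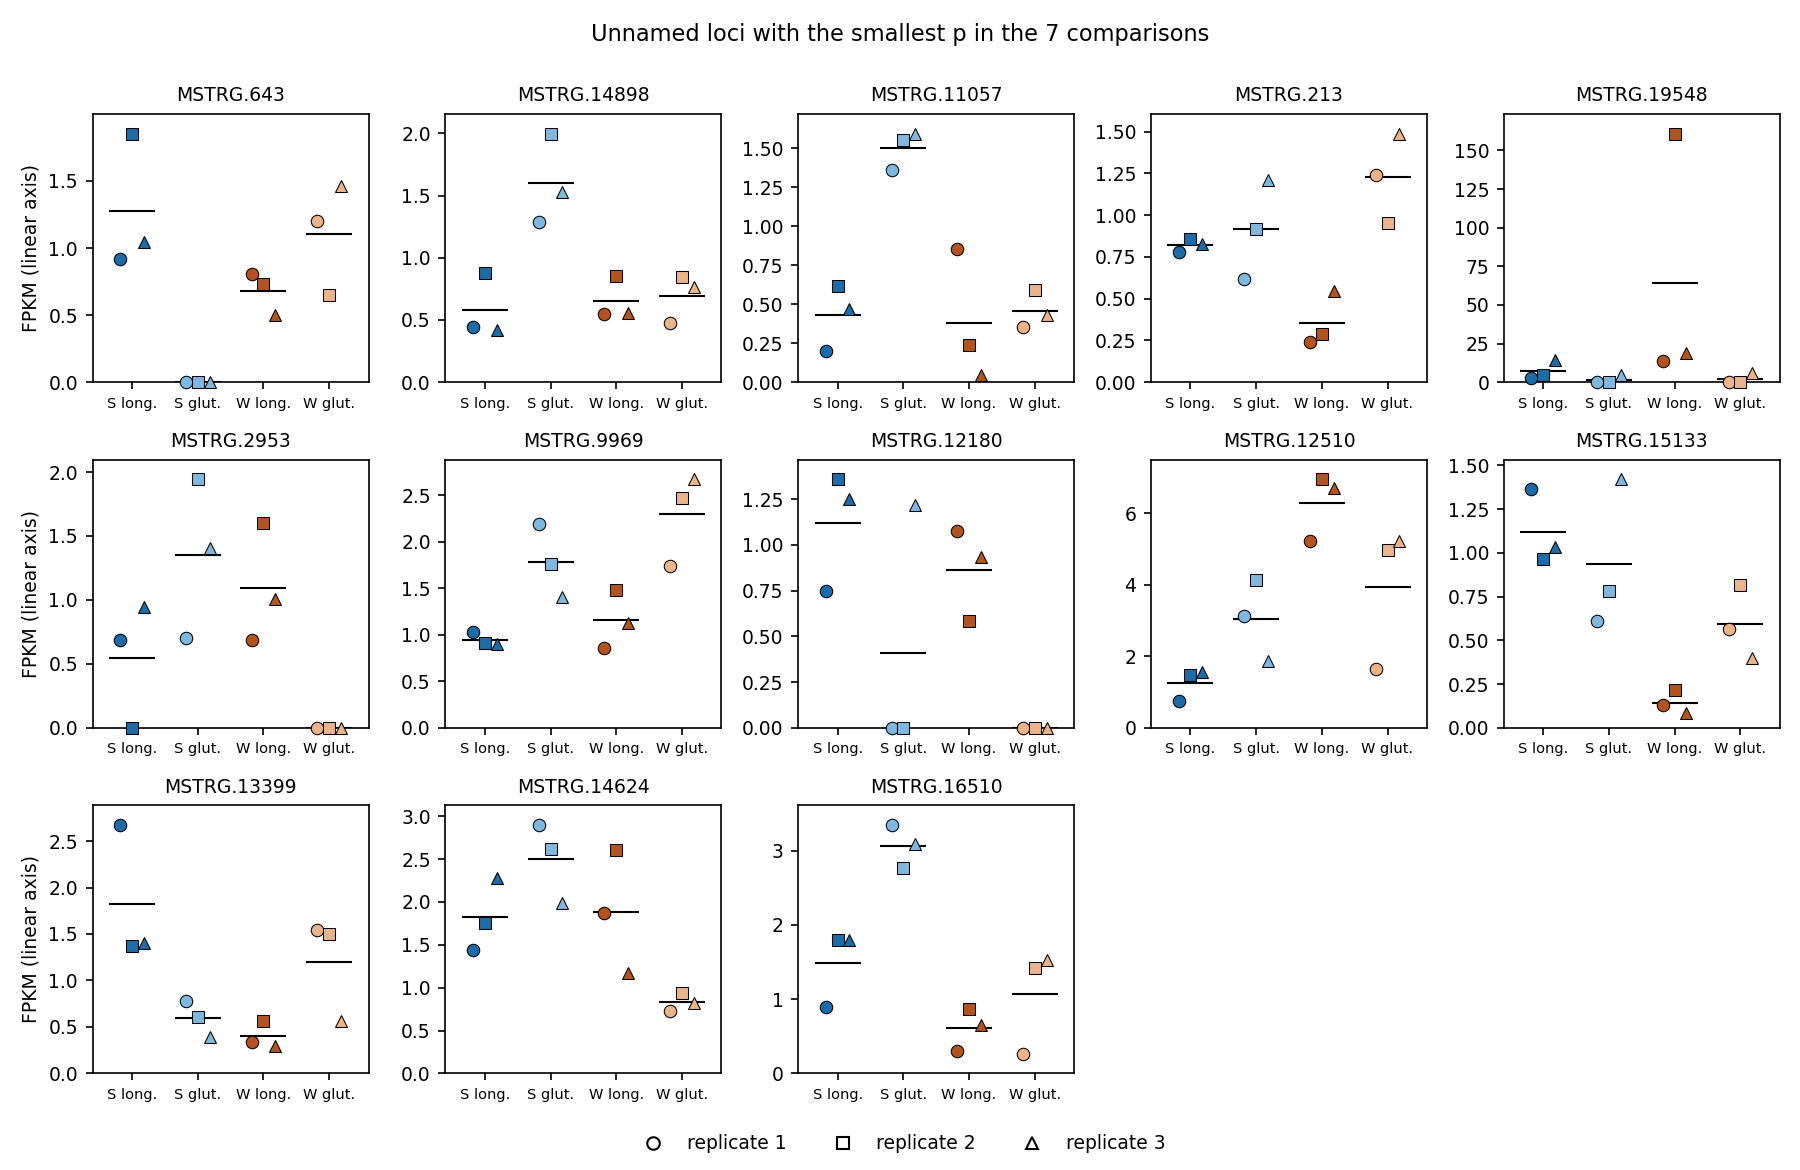
FPKM (vertical linear axes from 0, one scale per panel) of the 13 unnamed loci with the smallest p in the 7 comparisons, in Sanfen (S) and Wutou (W) longissimus (long.) and gluteal (glut.) libraries; symbols are libraries, shapes replicate numbers and bars group means of 3. MSTRG.643 is listed at 0 in all 3 Sanfen gluteal libraries, MSTRG.12510 is higher in Wutou than in Sanfen longissimus, and no locus passed the adjusted threshold.

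No abundant member passed the test either. Over the 10 most abundant, the smallest adjusted p in any comparison was 0.793, for MSTRG.9789. MSTRG.6834 and MSTRG.9671 had their smallest unadjusted p at 0.415 and 0.360, both for Wutou against Sanfen averaged over muscles, with differences of -0.96 ± 1.13 (SE) and -1.48 ± 1.55 on the log2(FPKM + 1) scale. MSTRG.17476 differed by 0.51 ± 0.27 (SE) between the strains in longissimus, with 896 to 1717 FPKM in Sanfen and 1508 to 1967 in Wutou (limma, unadjusted p = 0.0815, adjusted p = 0.854). MSTRG.5775 differed by -0.42 ± 0.23 (SE) in the same comparison (unadjusted p = 0.0949, adjusted p = 0.854). A p that misses the threshold does not show that levels were alike.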

How the data were processed

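RNA was measured in 12 muscle libraries. The authors deposited 1 FPKM value per locus and library, per the file headers. Cutadapt, Bowtie2 and TopHat2 are named in the submitters' processing notes, and the genome build and any rescaling between samples are not given in the sources used here. Read counts are not given, so the depth is unknown and no counting interval is stated; summed FPKM ran from 214564 to 319767 per library. Column names carry the sample titles, and groups follow the labels.

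Loci with at least 1 FPKM in at least 3 of 12 libraries were tested with limma 3.58.1 (R 4.3.3) on log2(FPKM + 1), with an intensity trend, 1 model of 4 group means and Benjamini-Hochberg adjustment over all 12408. The strain comparison averaged over muscles used a random block of strain plus number (statmod 1.5.0, correlation 0.188). The fit was tested on simulated data. Fold changes on this scale understate changes of low loci.

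The replicate numbers pair the Sanfen libraries by the values, not by a label: deviations from group means correlated at 0.246, 0.110 and 0.158 for equal numbers. In Wutou they were 0.182, 0.165 and 0.0711, the last under the limit of 0.1 for taking numbers as pairs. Unequal numbers gave -0.149 to -0.000829 in Sanfen and -0.169 to 0.0126 in Wutou. The muscle comparisons were fitted without pairs, also in Sanfen, where 56 members had an unadjusted limma p under 0.05, and 88 with the block. The interaction was fitted in the same way. In Wutou the counts were 62 without and 83 with the block, averaged over strains 78 and 104, and for the interaction 44 and 60. The counts with the block have no share over all loci beside them. The random block above treats equal numbers within either strain as correlated. It rests on the design, in which the libraries of a strain may share donkeys, and not on a label.

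Members named are the 10 with the highest mean, the 3 with the smallest p in each comparison, the loci nearest the threshold, the 5 most variable with a mean of at least 5 FPKM and those at 2 separated levels. MSTRG.9831, MSTRG.2698, MSTRG.8273 and MSTRG.16171 were named after their values were seen. Members, marker lists and rules were chosen with earlier results of these data known. Marker lists not printed in the report gave summed levels of 13.9 to 26.4 FPKM (adipocyte), 106 to 226 (fibroblast), 43.0 to 80.2 (endothelial) and 4.19 to 17.1 (neural); the slow fibre list held 1.13% to 3.20% and the fast fibre list 2.73% to 7.77% of summed FPKM, and no mitochondrially encoded gene was listed. In the numbering check, 14152 of 16357 named loci matched RefSeq. Alternatives were other pseudocounts, filters and scalings, array weights, the block, fewer libraries and each library left out. Python 3.11.15 with pandas 2.3.3 and matplotlib 3.10.9 made tables and figures.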

Additional observations from a re-analysis of the deposited data

How the results depend on the processing

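No member was called in 141 of 143 repeats of the 7 comparisons. The exceptions were 1 member at a pseudocount of 0.1 in the Sanfen muscle comparison (MSTRG.643) and 1 when only the 6 libraries compared were fitted for the strains in longissimus. That locus, MSTRG.16171, was listed at 0 in the 3 Sanfen longissimus libraries and at 3.22, 2.91 and 3.50 FPKM in Wutou, with a limma adjusted p of 0.00530 there, 0.839 with all 12 libraries and 0.00530 to 1.0 over 20 alternatives. With the replicate block, or without it in the strain comparison averaged over muscles, 0 members were called in each comparison, so the block changed no call, and leaving out each library in turn gave 0 to 0. Another 612 repeats covered the members with the smallest p, and the 10 most abundant members in the comparison where each had its smallest p. The abundant members were far from the threshold, with adjusted p of 0.793 or above in the main limma fit. Of the 612 repeats, 611 kept their direction and their side of the threshold and 1 passed it. Array weights were not run for the strain comparison averaged over muscles, since they were not combined with the random block. Leaving out the most abundant member changed the share of summed FPKM to 10.8% in Sanfen longissimus, 13.5% in Sanfen gluteal, 11.5% in Wutou longissimus and 16.4% in Wutou gluteal. Without the 10 most abundant loci of the table it was 5.57%, 8.37%, 5.52% and 6.11%. The depth is unknown, so what it limits was not tested.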
